A study of Mus musculus with 8 samples.

Results

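The infarct zone of hearts lacking TIGAR was set against the infarct zone of wild-type (WT) hearts, with attention to genes outside the heart muscle program. The comparison used 2 of the 8 RNA sequencing libraries, 1 from each genotype, and covered 12999 of the 16994 genes in the count table, those with an average of 1 or more CPM (counts scaled to a common library size). TIGAR is a phosphatase that restrains glycolysis, and the knockout (TKO) mice lacked it in the whole body. The floxed *Tigar* line of the same study came from C57BL/6N-Tigar tm1a(EUCOMM)Wtsi mice, and how the TKO line was made is not given in the sources used here. The mice were male, and the infarct was made at 16 weeks of age by permanent ligation of the left anterior descending coronary artery. Heart function was reported 4 weeks later, and the time at which tissue was taken for RNA is not stated in the sources used here. RNA from 3 mice was pooled for each infarct library, the number behind the other libraries is not given in the sources used here, and with 1 library per group no value has a replicate and no p value is given. The other 6 libraries, from the border zone, the remote zone and the left ventricle of each genotype, set the scaling and served as a reference, and whether the left ventricle came from hearts without an infarct is not given in the sources used here.

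An infarct is a region of heart muscle that died when its blood supply stopped. In the weeks that follow, neutrophils and monocyte-derived macrophages clear the debris, fibroblasts turn into contractile myofibroblasts that lay down matrix, and the region becomes a scar of dense matrix with matrifibrocytes, which express genes also used by cartilage and tendon. Bulk RNA from such a region mixes these cells with surviving muscle, vessels and epicardium.

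The counts given below are the deposited estimated counts, not yet scaled. Ratios are TKO over WT after scaling by the trimmed mean of M values (TMM) over all 8 libraries, and ranges in brackets are exact binomial (Clopper-Pearson) 95% intervals, which cover counting error only and not the difference between hearts. The WT infarct library held 27429240 counts and the TKO infarct library 28419083, within the range of 27429240 to 33799249 over the series. TMM factors were 1.54 (WT infarct library) and 1.26 (TKO infarct library), against 0.866 to 0.956 in the other 6, so the infarct libraries stood apart in composition and their ratio depended on the scaling. Scaling by total counts multiplied every infarct ratio by 0.816.

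*Tigar* (chr6:127085116-127109557 of GRCm38, minus strand) had 1066 counts in the WT infarct library and 87 in the TKO one, a ratio of 0.0966 (0.0767 to 0.12). In the border zone, remote zone and left ventricle WT held 2215, 1997 and 1965 counts and TKO 79, 87 and 51, so the labels and the gene went together in all 4 regions. As a label check of the tissue, *Myh6*, the main myosin heavy chain of mouse ventricle, was lower in both infarct libraries than in any other library, with 45355 counts in WT and 130620 in TKO against 153941 to 244473 elsewhere. *Comp*, a matrix protein of cartilage and scar, had 53811 and 30128 counts in the WT and TKO infarct libraries against 293 to 6527 elsewhere.

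Genes enriched in the infarct zone were on the whole lower in the TKO infarct zone, and genes of heart muscle were higher. Genes were sorted by the mean of both infarct libraries over the mean of both left ventricle libraries. This sort treats the genotypes alike but uses the same infarct values as the ratio, so a gene high in 1 genotype alone can enter. *Myh4*, with 1486 counts in the WT infarct library, 1 in TKO, and 3 and 2 in the left ventricle, did so. Of the 2242 infarct-enriched genes, at least 2-fold higher in the infarct zone, 2019 had a TKO over WT ratio below 1 and 222 above, with a median of 0.758. The 1438 infarct-depleted genes had a median of 1.6, the 9319 genes in neither class 1.02, and all genes tested 1.005. In these pooled tissue pieces, fewer cells of a type and less RNA per cell cannot be told apart. The medians of the same infarct-enriched genes in the border zone, remote zone and left ventricle were 0.749, 0.814 and 0.891. Summed over the class, infarct-enriched genes took 112100 CPM in the WT infarct zone and 88460 in TKO. The 30 sarcomere and calcium handling genes took 26100 and 49570 CPM, with a median ratio of 1.84, and 33 fatty acid oxidation genes had a median of 1.97. The part of the muscle content in the scar differences was not tested.

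**Figure D1:**
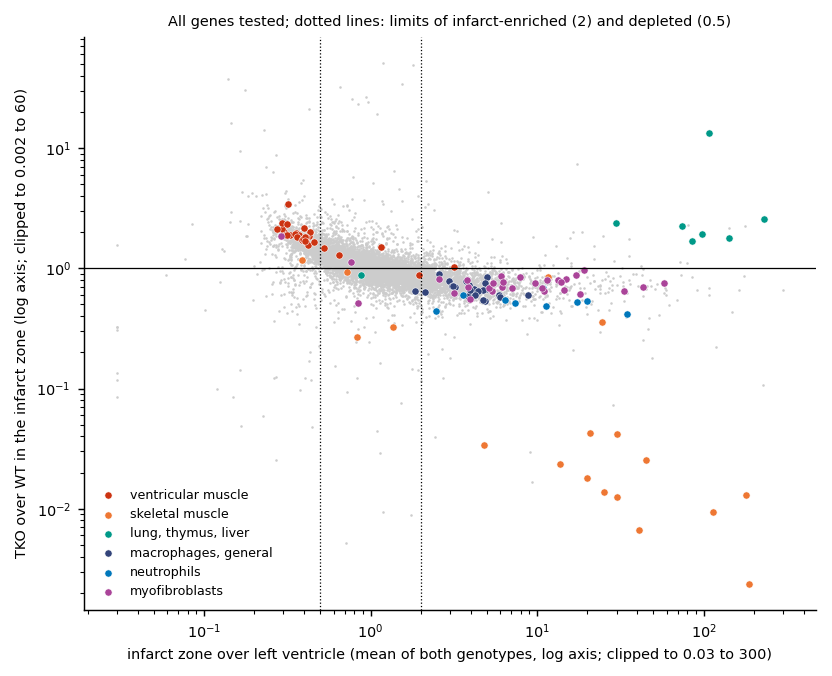
TKO over WT ratio in the infarct tissue (vertical, log axis) against the infarct zone over left ventricle ratio, both genotypes averaged (horizontal, log axis), for all genes tested in grey and 6 marker lists in colour, after TMM scaling. Genes right of the right dotted line (infarct-enriched) had a median of 0.758 and genes left of the left one (infarct-depleted) 1.6, or 0.618 and 1.31 with total counts, with skeletal muscle genes far below and lung genes above the rest.

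At a ratio of 2 or more with its interval clear of 1, 324 genes (2.49% of those tested) were higher in TKO and 192 (1.48%) were lower. Scaled by total counts, the same counts were 121 and 520. Among infarct-enriched genes, 20 (0.892%) were at least 2-fold higher and 112 (5%) at least 2-fold lower, and with total counts 9 and 353. At 1.5-fold, the limit used for the gene lists that follow, 10% of all genes were higher and 6.27% lower, and among infarct-enriched genes 1.74% were higher and 25.4% lower. The shares of scar gene lists were read against that 25.4%, which describes a class set with the same infarct libraries and is not an independent standard.

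Many of the genes farthest apart between the infarct libraries belonged to tissues other than ventricle. Genes of fast skeletal muscle were far higher in the WT library. *Myh4* (chr11:67238029-67260446), a fast skeletal myosin, had 1486 counts in the WT infarct zone and 1 in TKO, with 193 in the WT border zone and 2 to 6 in the other 5 libraries. *Tnnc2*, fast skeletal troponin C, had 888 counts and 5, and *Atp2a1*, the calcium pump of fast fibres, 1874 and 22. *Pvalb*, the calcium buffer parvalbumin, had 769 and 22. Of 18 skeletal muscle genes tested, 15 were at least 1.5-fold lower and 0 higher, with a median ratio of 0.0297. Some members met the expression limit only through the WT infarct library, such as *Ryr1*, with 275 and 1 counts and 0 to 43 elsewhere. The median was 0.156 when 10 counts were required in each infarct library, and 0.134 with no limit. The summed level was 296.8 CPM in WT against 35.55 in TKO. The WT border library also stood out at 101.8 CPM, while the other 5 libraries lay between 41.73 and 52.24.

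Atrial muscle genes took the same direction. *Sln*, the atrial calcium pump inhibitor sarcolipin, had 300 counts in WT and 10 in TKO, *Myl7*, atrial myosin regulatory light chain, 682 and 44, and *Myl4*, the atrial essential light chain, 1464 and 177 (the last pair named after their values were seen). The remote libraries held more than either, with 5227 and 2031 counts of *Myl7* in WT and TKO. Over all 14 wall stress and fetal muscle genes, 3 were at least 1.5-fold higher and 3 lower, with a median of 0.911 that became 1.2 when centred on the infarct-enriched median, that is, divided by it.

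Lung genes lay the other way. *Scgb1a1* (chr19:9083636-9087958), the secretoglobin of airway club cells, had 108 counts in the WT infarct zone and 1220 in TKO, a ratio of 13.4 (11 to 16.4). *Sftpc* (chr14:70520949-70524081), a surfactant protein of alveolar type II cells, had 4871 and 10576 counts and *Ager*, a receptor of alveolar type I cells, 477 and 898. The left ventricle libraries held 4 and 5, 31 and 17, and 5 and 8 counts of these 3 genes. The lung, thymus and liver list had 9 genes tested, 8 of them at least 1.5-fold higher and 0 lower, with a summed level of 195.9 CPM in WT and 473.7 in TKO. In the remote zone the WT library held more, 44.46 CPM against 6.31. *Slc34a2* and *Nkx2-1*, a phosphate carrier and the homeobox factor of alveolar epithelium, were likewise higher in the TKO infarct zone, with 594 and 1137 and with 87 and 148 counts (*Nkx2-1* was chosen after its values were seen). Both infarct libraries thus held lung transcripts, at a higher level in TKO. The part of the skeletal muscle, atrial and lung transcripts in the results that follow was not tested.

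**Figure D2:**
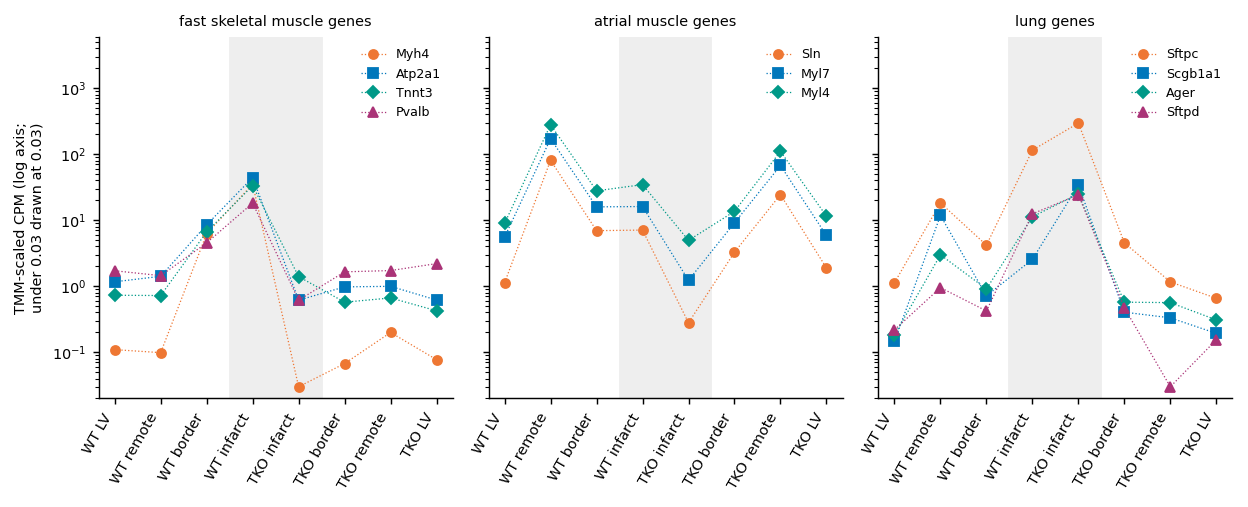
Level (TMM-scaled CPM, log axis) of 4 fast skeletal muscle, 3 atrial and 4 lung genes in each of the 8 libraries, 1 point per library, with the infarct libraries shaded and dotted lines only joining points of a gene. *Myh4* stood at 1486 counts in the WT infarct library and 1 in TKO, the atrial genes were highest in the remote libraries, and the lung genes were highest in the TKO infarct library, with 10576 counts of *Sftpc*.

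Of the 20 infarct-enriched genes at least 2-fold higher in TKO, 4 were in the lung list and 1 was at 3 or fewer counts in the WT library. Of the 112 at least 2-fold lower, 13 were in the skeletal muscle list, 12 were immunoglobulin genes and 4 were at 3 or fewer counts in TKO. In all, 43 were in a list other than those of heart muscle, and these 43 include the 13 of the skeletal muscle list. Without the members of the skeletal muscle and lung lists, immunoglobulin genes and near-absent genes, a choice made after the data were seen, 15 were higher and 85 lower. Genes of lung outside that list were not removed, and *Slc34a2* and *Cbr2* (also an airway gene) were still among the 15.

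**Figure D3:**
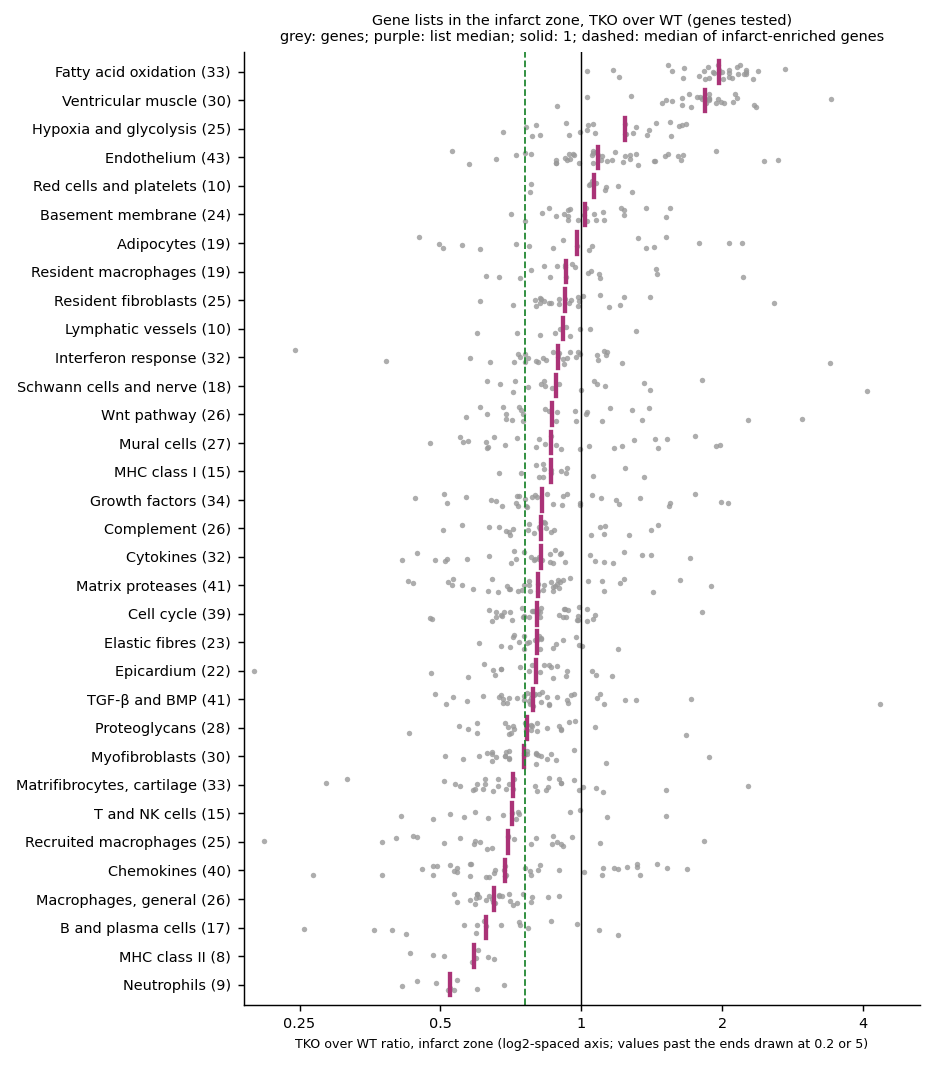
TKO over WT ratio of every tested gene (grey points) and the median (purple bar) of 33 gene lists in the infarct tissue, on a log2-spaced axis, with a solid line at 1 and a dashed line at the infarct-enriched median of 0.758. Neutrophil, MHC class II, B cell and macrophage lists lay lowest, at 0.525, 0.589, 0.625 and 0.652, and the endothelial, blood and basement membrane medians just above 1 were below it with total counts, at 0.886, 0.869 and 0.829.

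Macrophage genes were lower in the TKO infarct zone across the list. All 26 core genes tested had a ratio below 1, with a median of 0.652, and 15 were at least 1.5-fold lower and 0 higher. The list summed to 2594 CPM in WT and 1814 in TKO. *Cd68*, a lysosomal protein of macrophages, had 1550 and 954 counts, a ratio of 0.728 (0.671 to 0.79). *Csf1r*, the receptor that keeps macrophages alive, had 5486 and 3637 counts, a ratio of 0.785. *Cx3cr1*, the fractalkine receptor, was the lowest at 941 and 425 counts, a ratio of 0.534, and *Mertk*, a receptor for the uptake of dead cells, had 1112 and 842 counts, a ratio of 0.896. The list lay below the infarct-enriched median, at 0.86 of it. The border zone, remote zone and left ventricle gave medians of 0.68, 0.74 and 0.794.

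Genes of recruited, monocyte-derived macrophages were mostly lower in the TKO infarct zone. *Ccr2*, the chemokine receptor that brings monocytes out of the marrow, had 1484 counts in WT and 470 in TKO, a ratio of 0.375 (0.337 to 0.416). *Arg1*, the arginase of wound macrophages, had 254 and 45, a ratio of 0.21 (0.149 to 0.289). *Plac8*, a monocyte gene, had 347 and 118, *Ly6c2*, the surface marker of inflammatory monocytes, 140 and 70, and *Spp1*, the matrix cytokine osteopontin, 4405 and 1890. In the border zone *Ccr2* had 364 and 165 counts and *Arg1* 84 and 6, while in the left ventricle *Ccr2* had 67 and 91, with WT no longer the higher. Of 25 genes in the list, 12 were at least 1.5-fold lower and 1 higher, with a median of 0.696, or 0.918 when centred on the infarct-enriched median. The higher one was *Cd36*, a fatty acid carrier that heart muscle also makes. *Chil3*, a chitinase-like protein that lung macrophages also make, was 3928 and 1450 in the infarct zone and 651 and 6 in the remote zone, where lung genes were higher in WT. The gene was chosen after its values were seen.

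Resident macrophage genes lay near 1. *Lyve1*, *Timd4*, *Folr2* and *Cd163*, receptors of the self-renewing macrophages of the uninjured heart, had ratios of 0.927, 1.1, 1.03 and 1.44. *Folr2* had 358 and 313 counts and *Cd163* 493 and 601. The list of 19 genes had a median of 0.927, below 1 with TMM scaling and 1.22 when centred on the infarct-enriched median, with 1 gene at least 1.5-fold lower (*Vsig4*, 91 and 48 counts) and 1 higher. The higher one, *Cbr2*, had 898 and 1681 counts and is also a carbonyl reductase of airway cells.

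Neutrophil genes were lower in the TKO infarct zone by close to 2-fold. The calprotectin subunits *S100a8* and *S100a9* had 538 and 243 counts and 681 and 302 counts in WT and TKO, ratios of 0.535 (0.457 to 0.623) and 0.525 (0.457 to 0.602). *Csf3r*, the receptor for granulocyte growth factor, had 775 and 320, *Cxcr2*, the receptor for neutrophil attractants, 312 and 143, and *Il1r2*, a decoy receptor for interleukin 1, 120 and 42. Of 9 genes tested, 8 were at least 1.5-fold lower and 0 higher, with a median of 0.525, and the other members of the list did not reach the expression limit or were not in the table. *Il1b* and *Mmp9*, which macrophages also make, were among the 9. The border zone had the list lower still in TKO, at a median of 0.384, with 321 and 66 counts of *S100a8*, and the left ventricle had it at 0.932, with 14 and 12 counts.

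**Figure D4:**
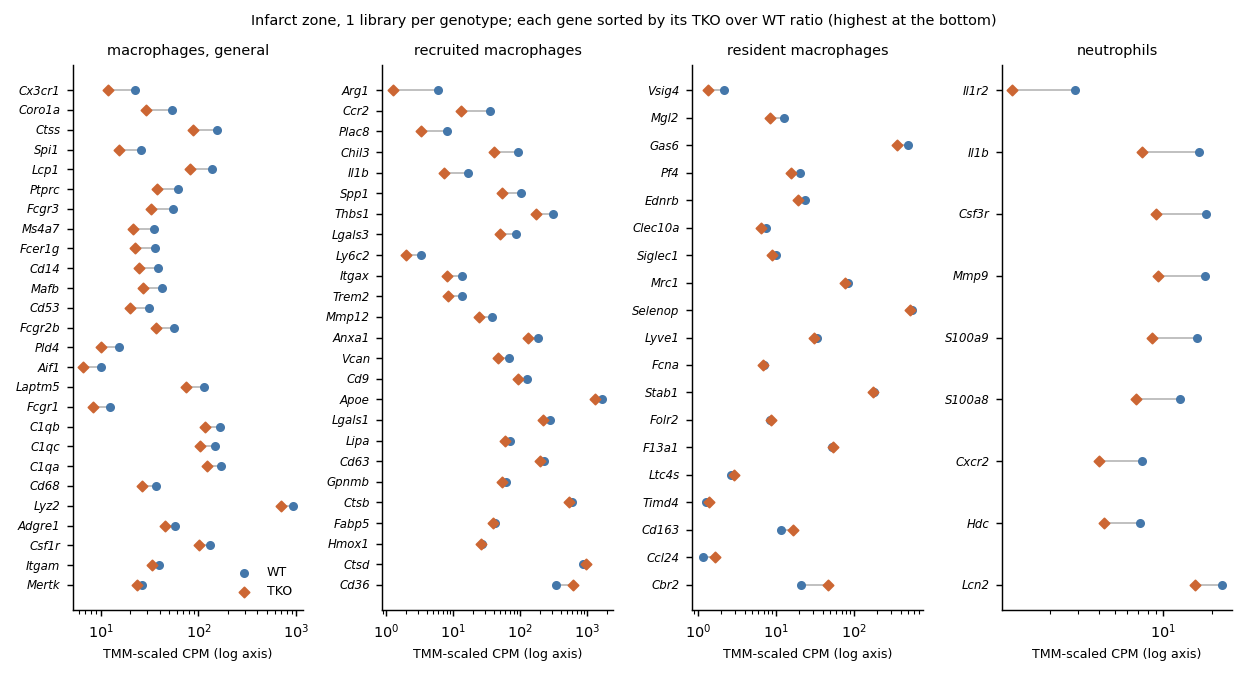
Level (TMM-scaled CPM, log axis) of each tested gene in the WT (circle) and TKO (diamond) infarct libraries for general, recruited and resident macrophage and neutrophil lists, sorted by ratio. In the general macrophage and neutrophil lists every tested gene was lower in TKO (26 of 26 and 9 of 9), and resident macrophage genes lay on both sides, with 7 of 19 higher.

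MHC class II genes, which present peptides to helper T cells and are made by macrophages, dendritic cells and B cells, were lower as a block. *H2-Aa* had 9841 counts in WT and 4852 in TKO, a ratio of 0.583 (0.564 to 0.604). *H2-Ab1* had 8932 and 4490, and the invariant chain gene *Cd74* 20567 and 10471. All 8 genes tested were at least 1.5-fold lower, with a median of 0.589 and a range of 0.43 to 0.65. *H2-DMa* and *H2-Oa*, below the expression limit, had 24 and 34 and 55 and 15 counts. The highest was *Ciita*, the transactivator on which the class depends, at 477 and 262 counts, and the lowest *H2-Ob*, a subunit of the peptide loading modifier, at 168 and 61. The border zone, remote zone and left ventricle gave medians of 0.762, 0.743 and 0.397, so the class was lower in the TKO left ventricle too.

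The promoters of these genes are known for a shared module that ends in a Y box, the inverted CCAAT sequence bound by nuclear factor Y. The 100 bases before the RefSeq start (GRCm38.p6) of 4 members are shown because the members lay close together, with ATTGG, or CCAAT where it lies on the other strand, in capitals, 5′ to 3′ on the strand of the gene.
H2-Aa (chr17:34287824-34287923, minus strand): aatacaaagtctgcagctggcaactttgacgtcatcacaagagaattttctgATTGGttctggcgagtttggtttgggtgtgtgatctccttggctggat
H2-Eb1 (chr17:34305767-34305866, plus strand): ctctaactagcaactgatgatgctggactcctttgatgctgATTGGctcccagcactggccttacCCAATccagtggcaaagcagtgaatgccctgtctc
H2-Ob (chr17:34238805-34238904, plus strand): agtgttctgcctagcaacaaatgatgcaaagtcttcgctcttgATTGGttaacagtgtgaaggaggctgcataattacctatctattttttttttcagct
H2-DMb2 (chr17:34145149-34145248, plus strand): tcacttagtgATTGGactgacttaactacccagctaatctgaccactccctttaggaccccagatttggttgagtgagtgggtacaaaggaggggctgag
The first base of ATTGG lay 48, 59, 57 and 90 bases before the start. These 4 genes had 9841, 114, 168 and 162 counts in WT and 4852, 49, 61 and 66 in TKO. The RefSeq entries used covered 7 of the 10 class II genes in the table with 8 promoters, and 6 of the 8 held ATTGG on the strand of the gene. Any entry for *Cd74* was left out by choice, so these numbers do not cover that gene. Of 32851 mouse promoters, 10.4% held it in the same 100 bases, and 18.9% on either strand. The match is a description of these letters and does not show binding.

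MHC class I genes, which nearly all cells make, stood closer to 1. *B2m*, the shared light chain, had 20301 and 14225 counts, a ratio of 0.829, *H2-K1* 14499 and 11376 counts, a ratio of 0.929, and *H2-D1* 20289 and 15503, a ratio of 0.904. Of the 15 genes tested, 0 were 1.5-fold different in either direction, and the median of 0.86 became 1.13 when centred on the infarct-enriched median.

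Lymphocyte genes had low counts but leaned the same way. *Cd3d* and *Cd3g*, chains of the T cell receptor complex, and the coreceptor gene *Cd4* had 131 and 62, 178 and 79, and 195 and 68 counts in WT and TKO. Of 15 T and NK genes tested, 6 were at least 1.5-fold lower and 1 higher, with a median of 0.71, or 0.937 when centred on the infarct-enriched median. For B cells, *Cd79a* and *Cd79b*, the signalling chains of the receptor, had 271 and 137 and 242 and 115 counts, and *Ms4a1* (CD20) had 148 and 45. Of 17 B and plasma cell genes, 9 were 1.5-fold or more lower and 0 higher, with a median of 0.625 (0.824 centred). The left ventricle had this list lower still in TKO, at 0.14, with 57 and 7 counts of *Ms4a1*.

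The immunoglobulin constant region genes given here did not share 1 ratio. *Ighm*, the IgM heavy chain, had 8657 and 2887 counts, which gave 0.395 (0.378 to 0.412), and *Ighg3*, an IgG heavy chain, 1782 and 385, a ratio of 0.256 (0.228 to 0.286). *Igha*, the IgA heavy chain made by mucosal plasma cells, had 24165 and 19991, a ratio of 0.979 (0.961 to 0.998). *Igha* and *Ighm* were named after their values were seen. Over 44 immunoglobulin genes, which share sequence and whose reads can be divided among copies, the median was 0.715 and the sum 1709 CPM in WT and 1258 in TKO.

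Chemokine genes were mostly lower in TKO. Of 40 ligands and receptors tested, 17 were at least 1.5-fold lower and 2 higher, with a median of 0.688, or 0.907 when centred on the infarct-enriched median. *Cxcl13*, the attractant of B cells, was lowest, at 761 counts in WT and 172 in TKO, and *Ccl3*, a macrophage inflammatory protein, was highest at 152 and 216. *Il1b*, the interleukin 1 beta gene, had 700 and 263 counts and its antagonist *Il1rn* 352 and 145, ratios of 0.445 and 0.487. Over 32 cytokine genes, 7 were 1.5-fold or more lower and 1 higher, and the median of 0.818 became 1.08 when centred on the infarct-enriched median.

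Interferon-stimulated and complement genes had few members past 1.5-fold. Of 32 interferon-stimulated genes, 4 were 1.5-fold or more lower and 1 higher, with a median of 0.891, or 1.18 when centred on the infarct-enriched median. *Ifit1* and *Ifit3*, antiviral RNA-binding proteins, had 789 and 580 and 1784 and 1102 counts. Of 26 complement genes, 3 were 1.5-fold or more lower and 0 higher, with a median of 0.819 (1.08 centred). *C1qa*, a macrophage product, had 7263 and 4386 counts, a ratio of 0.715, and *C7*, of the membrane attack complex, 892 and 1097, a ratio of 1.46.

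Genes of the uninjured fibroblast lay near 1 with TMM scaling. *Pdgfra*, the growth factor receptor of cardiac fibroblasts, had 4001 counts in WT and 2810 in TKO, a ratio of 0.831 (0.792 to 0.872). *Dcn*, decorin, had 73846 and 55774, a ratio of 0.894, while *Tcf21*, a transcription factor of fibroblasts at rest, had 1791 and 921, a ratio of 0.609. Of 25 genes in the list, 1 was at least 1.5-fold lower, *Tcf21*, and 1 higher. Their median of 0.92 became 1.21 when centred on the infarct-enriched median. The higher one, *Inmt*, a methyltransferase also made in lung, had 431 and 941 counts.

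Genes of activated fibroblasts and myofibroblasts were mostly lower in TKO. *Acta2*, smooth muscle actin, had 12277 and 6507 counts, which gave 0.627 (0.609 to 0.646), and *Tagln*, transgelin, 8945 and 4231, which gave 0.56 (0.54 to 0.581). *Fn1*, fibronectin, was lowest of the list at 2836 and 1227 counts, and *Cthrc1*, a collagen triple helix protein of activated fibroblasts, had 681 and 403. In the border zone *Fn1* had 504 and 1616 counts, so its direction turned there. Of 30 genes, 28 had a ratio below 1, and 8 were at least 1.5-fold lower and 1 higher, a share near the 25.4% of infarct-enriched genes. The list median of 0.756 in the infarct zone stood beside 0.537, 0.627 and 1.01 for border zone, remote zone and left ventricle.

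Cartilage and tendon genes of the scar were mostly lower in TKO. *Chad*, chondroadherin, a collagen-binding protein of cartilage, had 1220 counts in WT and 294 in TKO, a ratio of 0.285 (0.25 to 0.324). *Col2a1*, the type II collagen of cartilage, had 454 and 121 counts, with 2 to 19 in the other 6 libraries, and was named after its values were seen. *Comp* had a ratio of 0.663 (0.653 to 0.672), and *Cilp2* had 1826 and 1104 counts. *Cilp*, its close relative, had 15153 and 12934 counts and a ratio of 1.01, so members of the same matrix layer did not share 1 ratio. Of 33 genes tested, 14 were at least 1.5-fold lower and 2 higher, with a median of 0.716, or 0.944 when centred on the infarct-enriched median.

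The other matrix lists had shares at or below that of infarct-enriched genes. Of 28 proteoglycan genes, 5 were 1.5-fold or more lower and 1 higher, with a median of 0.764 that became 1.01 when centred. *Bgn*, biglycan, had 87100 and 50557 counts, a ratio of 0.687, and *Vcan*, versican, 2834 and 1673. *Has2*, a hyaluronan synthase, was lowest at 105 and 38 counts. Of 23 elastic fibre genes, 1 was at least 1.5-fold lower, with a median of 0.804 (1.06 centred). That gene was *Lox*, the enzyme that crosslinks elastin and collagen, at 6748 and 3455 counts, while *Eln*, elastin itself, had 14168 and 8556.

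Matrix proteases and their inhibitors were mostly lower in TKO with TMM scaling. *Mmp3*, stromelysin, had 2669 counts in WT and 985 in TKO, a ratio of 0.437 (0.406 to 0.47), and *Mmp9*, the gelatinase of neutrophils and macrophages, 761 and 333, a ratio of 0.518. *Mmp2*, the gelatinase of fibroblasts, had 19153 and 14187, a ratio of 0.877. *Timp1*, the inducible inhibitor, had 1982 and 887 and was named after its values were seen. In the border zone *Mmp3* had 984 and 208 counts. Of 41 genes, 10 were 1.5-fold or more lower and 2 higher, near the share of infarct-enriched genes, and the median of 0.81 became 1.07 when centred.

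Basement membrane genes showed no gap at the median, which was 1.02 over 24 genes, or 0.829 with total counts. *Col4a1*, a chain of type IV collagen, had 20603 and 16282 counts, a ratio of 0.935.

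*Tgfb1*, *Tgfb2* and *Tgfb3*, the ligands that drive myofibroblast formation, had ratios of 0.81, 0.781 and 0.681, and *Tgfb3* had 4745 and 2732 counts. *Chrdl1*, a secreted BMP antagonist, had 976 and 402 counts, while another, *Grem1*, had 36 and 132. Of 41 TGF-beta and BMP genes, 6 were 1.5-fold or more lower and 2 higher, with a median of 0.789 (1.04 centred). Among Wnt genes, the secreted inhibitors *Sfrp1* and *Sfrp2* had 8042 and 4995 and 21991 and 12823 counts, ratios of 0.735 and 0.69, and *Wif1*, another inhibitor, had 70 and 134. The 26 Wnt genes had 3 at least 1.5-fold lower and 1 higher, with a median of 0.867 (1.14 centred). *Igf1*, the insulin-like growth factor of macrophages and fibroblasts, had 1798 and 1207 counts, and *Vegfa*, the main growth factor of endothelium, 5596 and 7302, a ratio of 1.54 (1.49 to 1.6). Of 34 growth factor genes 6 were 1.5-fold or more lower and 5 higher, with a median of 0.825 (1.09 centred), beside 6.27% and 10% of all genes.

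Endothelial genes lay near or above 1 with TMM scaling. *Pecam1* and *Cdh5*, adhesion proteins of all endothelium, had 5998 and 5343 and 4856 and 5093 counts, ratios of 1.05 (1.02 to 1.09) and 1.24 (1.19 to 1.29). *Kdr* and *Flt1*, receptors for vascular endothelial growth factor, both had a ratio of 1.43. Of 43 endothelial genes, 8 were at least 1.5-fold higher and 3 lower, beside 10% and 6.27% of all genes. Their median was 1.09, which total counts turned to 0.886. Medians for border zone, remote zone and left ventricle were 0.969, 0.982 and 1.03.

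The ends of the endothelial list are given next, and its members other than *Car4* and *Sele* were chosen after their values were seen. *Car4*, a carbonic anhydrase of capillaries, had 239 counts in the WT infarct zone and 531 in TKO, a ratio of 2.63 (2.25 to 3.08), and *Erg*, a transcription factor of all endothelium, had 154 and 319, a ratio of 2.45 (2.02 to 2.99). *Gpihbp1*, which holds lipoprotein lipase on capillary endothelium, had 969 and 1233, a ratio of 1.51, and *Meox2*, a factor of capillary endothelium, had a ratio of 1.06. Over the 6 other libraries *Car4* lay between 431 and 806, so the WT infarct zone was the lowest library. At the low end, *Plvap*, the diaphragm protein of fenestrated and venous endothelium, had 3493 and 1699 counts, a ratio of 0.576 (0.543 to 0.61), with 237 to 691 in the 6 others. The leukocyte adhesion genes *Sele* and *Selp*, E- and P-selectin, had 130 and 58 and 318 and 177 counts.

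Mural genes lay on both sides of 1, with most contractile smooth muscle genes below it. Of the smooth muscle genes, *Myh11*, smooth muscle myosin, had 4137 and 1920 counts and a ratio of 0.549 (0.52 to 0.58), and *Cnn1*, calponin, 649 and 260. *Acta2*, *Tagln*, *Myl9* and *Lmod1* were also at least 1.5-fold lower, at 0.627, 0.56, 0.632 and 0.652. *Mylk*, *Smtn* and *Myocd* had ratios of 0.881, 1.18 and 1.44. Of the pericyte genes, *Rgs5* had 12868 and 14110 counts and a ratio of 1.3 (1.27 to 1.33), and *Kcnj8*, a potassium channel subunit, 108 and 133. *Notch3*, *Cspg4* and *Mcam* had ratios of 0.905, 1.04 and 0.835. Among further list members, *Higd1b* and *Vtn* were at least 1.5-fold higher, at 1.75 and 1.52, while *Ndufa4l2* and *Steap4* lay at 0.861 and 0.992. *Myh11*, *Myl9*, *Lmod1*, *Mylk*, *Smtn*, *Myocd*, *Notch3*, *Cspg4*, *Mcam*, *Higd1b*, *Vtn*, *Ndufa4l2* and *Steap4* were chosen after their values were seen. *Abcc9*, the channel's regulatory subunit, had 3481 and 5803 counts but is also made by heart muscle. *Pdgfrb*, the receptor of both kinds of mural cell, had 5751 and 3940, a ratio of 0.811. Of 27 genes, 8 were 1.5-fold or more lower and 4 higher, beside 6.27% and 10% of all genes. The median of 0.861 became 1.14 when centred. The summed level was 3368 CPM in WT and 4419 in TKO, of which *Pln*, a calcium handling gene that heart muscle also makes, took 1373 and 2661. The 10 lymphatic genes had a median of 0.915 (1.21 centred), with 1 at least 1.5-fold lower, *Foxc2*, a factor of lymphatic valves, at 383 and 194 counts.

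**Figure D5:**
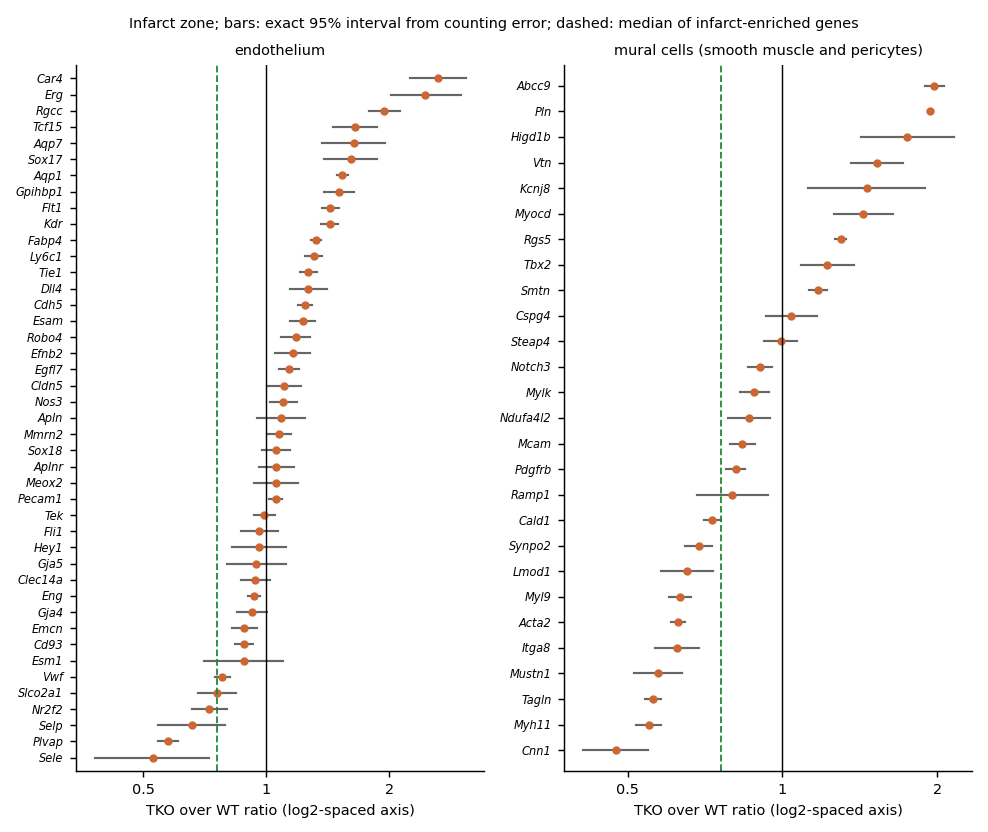
TKO over WT ratio in the infarct tissue (log2-spaced axis) of endothelial and mural genes, 1 point per gene with its 95% counting interval, a solid line at 1 and a dashed line at the infarct-enriched median. *Car4* (2.63) and *Abcc9* (1.97) lay highest and *Sele* (0.528) and *Cnn1* (0.474) lowest, and total counts would move every point by a factor of 0.816.

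A few genes were near absence in 1 infarct library. *Sorbs3*, an adhesion adaptor, had 688 counts in WT and 1 in TKO, with 131 to 337 in the 6 others. *Retnla*, a secreted product of alternatively activated macrophages, had 397 and 0, and *Cramp1*, a chromatin factor, 379 and 0. *Msln*, the surface glycoprotein mesothelin of the mesothelium, had 213 and 0. In the other direction, *Fgfbp3*, a carrier of fibroblast growth factors, had 0 and 140, at least 44.3-fold higher in TKO (lower end of the interval). Of 10 genes with at least 50 counts in WT and 3 or fewer in TKO, 9 were also at 3 or fewer in another library, and of 6 genes in the other direction, 4 were. All-or-none values of this kind thus occurred in the other regions as well. *Alox15*, a lipoxygenase of eosinophils and some macrophages, had 45 and 282 counts, a ratio of 7.42 (5.4 to 10.4), with 1 to 13 in the 6 others.

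Genes beside *Tigar* on chromosome 6 were checked, since the altered allele sits there. Of 9 tested within 1 Mb on each side, 3 were at least 1.5-fold higher and 1 lower, beside 10% and 6.27% of all genes, with a median of 1.16. The higher ones were *Ndufa9*, *Fgf6* (23 and 89 counts, with a ratio of 1.03 in the remote zone) and *Kcna5*. *Kcna5*, chosen after its values were seen, had a ratio of 1.71 but 0.446 in the left ventricle. *Ccnd2* (chr6:127125162-127152193), the cyclin D2 gene 15.61 kb from *Tigar*, had 4421 counts in WT and 1792 in TKO, a ratio of 0.48 (0.454 to 0.507), and its ratios were 0.317, 0.359 and 0.63 for border zone, remote zone and left ventricle. *Ndufa9*, a subunit of respiratory complex I, had 0 and 95 counts, at least 29.9-fold higher in TKO (lower end of the interval). It had 36 and 458 in the left ventricle and 0 and 66 in the border zone. The gap was smaller between the remote libraries, with 97 counts in WT and 159 in TKO, a ratio of 1.66. Whether these gaps come from the allele, from genome flanking it or from the tissue cannot be told apart here.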

How the data were processed

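The deposited table held estimated counts per gene for 8 libraries, which the authors made by trimming reads, assigning them to transcripts with kallisto and summing to genes (Trim Galore 0.6.5, kallisto 0.46 and edgeR 3.34.1 per the submitters' processing notes). The values were whole numbers and were used without further rounding. Here edgeR 4.0.16 (R 4.3.3) gave TMM factors over all 8 columns, and a gene entered when its average over the 8 libraries was 1 CPM or more. Ratios took counts under 3 as 3. Intervals were Clopper-Pearson intervals of the TKO share of counts at 95%, covering counting error only. The reads carried no molecular identifiers and may repeat a molecule, so the intervals may be too narrow even for that error. With 1 pooled library per group there was no test. The code was checked on simulated data. Gene positions were GENCODE vM21 (GRCm38), which matched 16867 genes.

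The comparison and its 40 gene lists were chosen with earlier results of these data known. Named genes were *Tigar*, the 15 highest and 15 lowest infarct-enriched genes, and the 10 highest and 10 lowest of all genes outside heart muscle lists. In each list, the first 4 members with its highest and lowest of at least 50 counts were also named. Genes in the text outside this rule, among them several vessel and mural genes, *Pln*, *H2-DMb2*, *Cd74* and *Chil3*, were chosen after their values were seen. Some genes are not reported here.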

Additional observations from a re-analysis of the deposited data

Results flagged for a closer look

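Of 238 named genes tested, 8 were at least 2-fold apart in one direction in the infarct zone and at least 2-fold apart in the other direction in the border or remote zone, with intervals clear of 1, in 8 pairs of regions. With 1 library on each side, these differences between regions were not tested.

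Lung genes made up 4 of them. In the remote zone, TKO over WT was 0.02815 for *Scgb1a1*, 0.06362 for *Sftpc*, 0.05319 for *Slc34a2* and 0.1888 for *Ager*, against 13.37, 2.569, 2.265 and 2.228 in the infarct zone. The counts were 359 and 10 for *Scgb1a1* and 556 and 35 for *Sftpc* in the WT and TKO remote libraries.

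*Retnla*, the macrophage product with 397 and 0 counts in the infarct zone (ratio 0.008943), had 0 and 92 in the border zone, a ratio of 31.85.

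*Tbccd1*, *Rinl* and *Nrbp2* had 0, 0 and 7 counts in the WT infarct library and 67, 81 and 202 in TKO, ratios of 26.43, 31.95 and 34.15. The border zone gave 0.03995 for *Tbccd1*, and the remote zone gave 0.05721 for *Rinl* and 0.0228 for *Nrbp2*, with 0 counts in the TKO library in each case. Ratios against a library at 0 counts use the floor of 3 counts in its place.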

How the results depend on the processing

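There was 1 pooled library per group, so no replicate could be left out and no interval covers variation between hearts. No paired analysis was possible because each group had 1 library and the labels carry no replicate numbers. The direction of a list rests on the scaling: of 43 lists and classes, 5 changed side of 1 with total counts and 21 when centred on the infarct-enriched median. Depth limits genes of low count most, as in the T cell and neutrophil lists.

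The counts of genes at least 2-fold higher, lower, infarct-enriched and higher, and infarct-enriched and lower (324, 192, 20 and 112) became 121, 520, 9 and 353 with total counts and 1269, 86, 39 and 39 when ratios were centred on the infarct-enriched median. Requiring 10 counts in each infarct library in place of the CPM limit gave 314 lower, 57 enriched and higher and 217 enriched and lower, and no limit gave 640, 634, 155 and 402. A 1.5-fold limit gave 1304 higher and 815 lower, and 39 and 569 among infarct-enriched genes. With enrichment set at 4-fold, 13 enriched genes were higher and 72 lower. DESeq2 size factors gave 339, 190, 20 and 111, and TMM over the 2 infarct libraries 311, 197, 18 and 116. Without members of the skeletal muscle and lung lists, immunoglobulin genes and near-absent genes, a choice made after seeing the data, they were 310, 150, 15 and 85. Over all alternatives, 334 of 1908 gene values and 81 of 343 list medians moved beyond their limit.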

Other observations

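Epicardial and mesothelial genes were lower in TKO in a share near the 25.4% of infarct-enriched genes. Among 22 tested, 6 lay 1.5-fold or more below WT and 0 above, with a median ratio of 0.8, or 1.06 when centred on the infarct-enriched median. *Upk3b* and *Upk1b*, uroplakins of the mesothelium, had 1365 and 778 and 401 and 219 counts in WT and TKO, and *Wt1*, a transcription factor of the epicardium, 505 and 364. In the left ventricle *Upk3b* had 121 and 5 counts. Schwann cell and nerve genes had a median of 0.882 (1.16 centred) over 18 genes, with 2 at least 1.5-fold higher and 0 lower, and blood cell genes 1.07 (0.869 with total counts) over 10. *Hbb-bs*, an adult beta globin, had 89271 and 78569 counts, a ratio of 1.04.

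Among 39 proliferation genes, 6 lay 1.5-fold or more below WT and 1 above, with a median of 0.806 (1.06 centred). *Mki67*, the nuclear marker of cycling cells, had 727 and 503 counts, a ratio of 0.819 (0.729 to 0.919). *Aurkb*, a mitotic kinase, had 102 and 41, while *Cenpf*, a kinetochore protein, had 321 and 492. Adipocyte genes had a median of 0.981 (1.29 centred) over 19, with *Adipoq*, adiponectin, at 109 and 56 counts in the infarct zone and 370 and 6 in the left ventricle. Clock genes, whose levels follow the hour of collection, had a median of 1.06, or 0.863 with total counts, over 18, and *Arntl* had a ratio of 0.583. Of 25 hypoxia and glycolysis genes, 5 were at least 1.5-fold higher and 0 lower, beside 10% and 6.27% of all genes. Their median of 1.24 became 1.01 with total counts, with 17 genes above 1 and 8 below under TMM scaling. *Egln1*, an oxygen sensor, had 5788 and 8198 counts, while *Hif1a* and *Car9* had ratios of 0.817 and 0.681. Dendritic, mast cell and eosinophil genes had a median of 0.847 (1.12 centred) over 12. Immediate early genes, which respond to handling, had a median of 0.951 (1.26 centred) over 28, with *Fos* at 0.551 and *Jun* at 1.15.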
